A study of Homo sapiens with 6 samples.

Results

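The Kruppel-like factors examined here are 10 listed members of a family of zinc finger transcription factors, namely KLF2, KLF4, KLF5, KLF6, KLF7, KLF9, KLF10, KLF11, KLF13 and KLF16. They were found as every array probe whose platform annotation carries one of these symbols, which gave 14 of 48784 probes. These covered 9 of the 10 genes, out of 18848 genes with a probe, and KLF11 was not analysed here because the annotation used gives its symbol to 0 probes. Of the 9 genes, 6 were tested.

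Transcripts were measured in SW1353, an established human chondrosarcoma line used as a model of chondrocytes. All cells were deprived of serum for roughly 20 h. The IL-1 group (3 arrays) then received interleukin-1 alpha, a cytokine that drives inflammation and cartilage breakdown, at 0.5 ng/ml for 6 h, and the control group (3 arrays) did not. Titles name replicates 1 and 2 of each group Allstars and replicate 3 of each group Sample, without saying what these words stand for. Separate cultures are not stated for the replicates, so the spread behind the p-values may be technical.

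Kruppel-like factors share a C-terminal set of zinc fingers that binds GC-rich and CACCC sequences, and they differ in the N-terminal part that recruits other proteins. The group with KLF2, KLF4, KLF5, KLF6 and KLF7 is known mainly for activating transcription through acetyltransferases. The group with KLF9, KLF10, KLF11, KLF13 and KLF16 is known for repressing it through the corepressor SIN3A. Many of the genes respond early to hormones, growth factors, flow or stress, and KLF2 and KLF4 have been studied as brakes on inflammation in endothelial and myeloid cells.

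IL-1 treated cells had more KLF9 transcript, 2.39-fold, and this was the only listed gene that passed without a block. KLF2 was lower by 0.70 and KLF10 higher by 0.64 on the log2 scale, and both passed when the kind of title entered the fit as a block. KLF4, KLF6 and KLF13 were measured and did not pass in either fit. KLF5, KLF7 and KLF16 were not well above background on any array. By known mode of action, 1 of the 3 tested genes of the SIN3A-binding group rose and 0 of the 3 tested genes of the activating group changed, and with the block these counts were 2 rises and 1 fall.

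These calls came from limma, fitted to 9078 genes with Benjamini-Hochberg adjustment over all of them and called at an adjusted p under 0.05. Of all genes tested 9.02% were called, 6.08% rising and 2.94% falling, against 1 rise and 0 falls among the 6 KLF genes. With title series as a block 35.2% were called, 13.0% rising and 22.2% falling, against 2 rises and 1 fall. That split moved with scaling. Equal array medians over all probes in place of quantile normalization gave 165 rises and 6 falls without the block, against 552 and 267. With the block they gave 539 and 540, against 1181 and 2015. That scaling left medians of kept probes (detection p under 0.01 on 3 or more arrays) running from 7.16 to 8.83 between arrays. Equal medians over kept probes, chosen after seeing the data, gave 533 rises and 198 falls without the block, and 1311 and 1659 with it. The median log2 difference was 0.01 for the 6 KLF genes and -0.11 for all genes tested. Levels below are normalized log2 signals of a probe, changes are IL-1 minus control, and precision is limited by how few arrays there are.

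Detection sets what can be said of each member. A probe was taken as well above background where its detection p, which sets its signal against that of negative control beads, was under 0.01. Of the 14 probes, 5 passed on all 6 arrays, those of KLF2, KLF6, KLF9 and KLF13 and one of the KLF4 probes. Another 5 passed on 0 arrays. The remaining 4, 1 of KLF4 and 3 of KLF10, passed on some arrays.

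**Figure D1:**
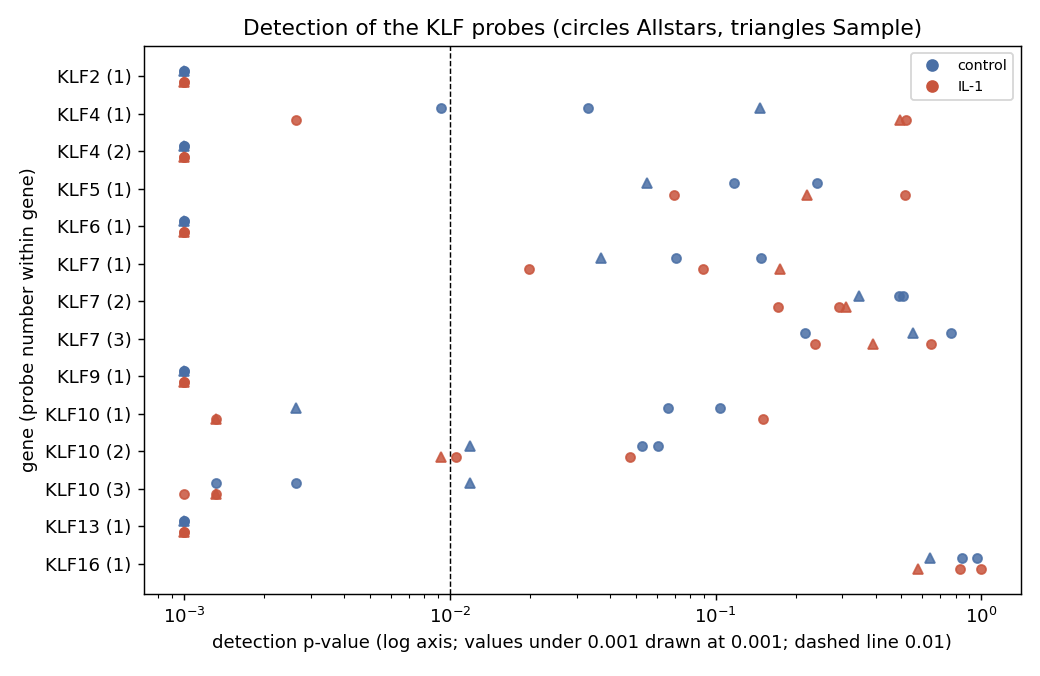
Detection p-values (log axis) of the 14 KLF probes on the 3 control and 3 IL-1 arrays, with a dashed line at 0.01; circles are Allstars arrays, triangles are Sample arrays, and probes are numbered within a gene. The probes of KLF5, KLF7 and KLF16 lie to the right of the line on all 6 arrays.

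KLF9, also called BTEB1, is induced by glucocorticoids and thyroid hormone in many tissues and represses a wide range of genes. Its probe, designed on NM_001206, read 8.56, 8.41 and 8.19 on control replicates 1, 2 and 3. On the IL-1 arrays it read 9.74, 9.54 and 9.65. Every IL-1 array was thus above every control array, as it was for 11.0% of all genes tested. The mean went from 8.39 ± 0.19 to 9.64 ± 0.10 (SD, n = 3 each), a rise of 1.26 ± 0.15 (SE) with a 95% interval of 0.91 to 1.61 (limma adjusted p = 0.00170).

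The KLF9 rise was seen under both kinds of title. The Allstars pairs, taken by number without a stated pairing, differed by 1.17 and 1.13 and the Sample pair by 1.46. On the Allstars arrays alone KLF9 rose by 1.15 (limma adjusted p = 1.34e-05), where 11.5% of all genes rose, and limma's adjusted p was 3.75e-07 with the title series block. The Sample response exceeded the Allstars response by 0.31, with a 95% interval of -0.14 to 0.76 (limma interaction adjusted p = 0.923). In the authors' deposited log2 values KLF9 read 8.01, 7.89 and 7.97 without IL-1 and 9.05, 8.86 and 9.07 with it. Of all genes tested, 96.0% had a lower log2 difference than KLF9.

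KLF2 is known as the flow-induced, anti-inflammatory factor of endothelium, where it limits NF-kB-driven transcription. Its probe, on NM_016270, read 8.93, 9.11 and 9.46 on control replicates 1, 2 and 3 and 8.25, 8.45 and 8.68 on the IL-1 arrays. All IL-1 arrays lay below all control arrays, an order seen for 17.1% of all genes tested. The mean was 9.16 ± 0.27 in control and 8.46 ± 0.22 in IL-1 cells (SD, n = 3 each), a difference of -0.70 ± 0.19 (SE), or 1.63-fold lower, with a 95% interval of -1.14 to -0.26. That difference did not pass (limma adjusted p = 0.0631).

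Between same-numbered arrays KLF2 was lower each time, though the titles do not state that these arrays were paired. The Allstars pairs differed by -0.68 and -0.66 and the Sample pair by -0.77. With the title series block KLF2 fell (limma adjusted p = 9.42e-05), as it did with the replicate pairs as a block (limma adjusted p = 5.04e-05). On the Allstars arrays alone, 2 against 2, it fell by 0.67 (limma adjusted p = 0.00175), as did 16.9% of all genes tested. In the fits without a block that left out an array, KLF2 passed only without IL-1 replicate 3 (limma adjusted p = 0.0390). In the bulk RNA of a culture, fewer cells with a transcript and less of it per cell cannot be told apart.

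**Figure D2:**
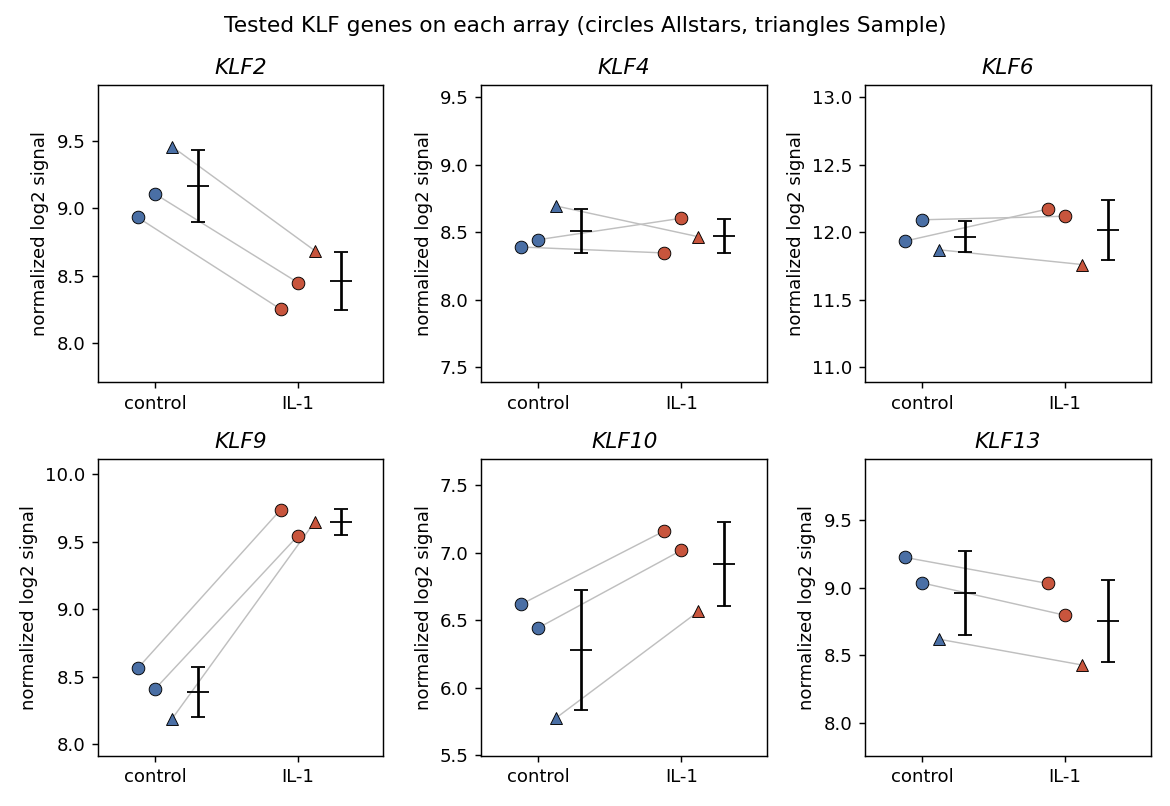
Normalized log2 signal of the 6 tested KLF genes on each array (circles Allstars, triangles Sample), with grey lines joining same-numbered arrays and bars showing mean and SD of 3 arrays; every panel spans the same range of log2 units. The KLF9 groups and the KLF2 groups do not overlap, and the titles do not state that same-numbered arrays were paired.

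The promoter windows of KLF9 and KLF2 are shown because these genes had the largest differences, in opposite directions, and because the letters around their start sites differ strongly. They are RefSeq windows of GRCh38.p14 with 250 bases before and 50 after the annotated start, at chr9:70414608-70414907 on the minus strand for KLF9 and at chr19:16324576-16324875 on the plus strand for KLF2. They run 5′ to 3′, and capitals in KLF2 mark the match to the binding site of MEF2, the factor family through which the kinase ERK5 induces KLF2 in endothelial cells.
KLF9: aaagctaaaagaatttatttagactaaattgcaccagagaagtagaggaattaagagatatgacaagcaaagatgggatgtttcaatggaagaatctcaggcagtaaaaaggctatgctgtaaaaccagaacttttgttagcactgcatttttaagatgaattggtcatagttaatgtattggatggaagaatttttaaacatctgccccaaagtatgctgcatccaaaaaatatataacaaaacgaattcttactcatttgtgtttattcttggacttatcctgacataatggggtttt
KLF2: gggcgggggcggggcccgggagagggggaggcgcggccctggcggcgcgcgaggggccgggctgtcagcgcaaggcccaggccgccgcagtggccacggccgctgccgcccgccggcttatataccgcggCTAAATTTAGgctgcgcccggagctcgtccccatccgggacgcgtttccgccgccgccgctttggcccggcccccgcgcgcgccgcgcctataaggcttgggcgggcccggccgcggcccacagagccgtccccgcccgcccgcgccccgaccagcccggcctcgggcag

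The KLF2 window held 80.7% G and C, more than 97.9% of all 34796 windows, and the KLF9 window held 32.7%, more than 2.37% of them. Searched on both strands, the MEF2 site occurred once in KLF2, as CTAAATTTAG starting 120 bases before the annotated start, and in 0.578% of all windows. The GC box GGGCGG, the letters that Sp and many KLF proteins bind, matched at 6 positions in KLF2 and 0 in KLF9, and 44.9% of all windows held it. Matches of the GC box may overlap each other. In both windows there were 0 matches of CACCC, of the AP-1 site TGANTCA, of TATAAA, of the glucocorticoid receptor site and of the NF-kB site. All windows held these in 59.8%, 7.73%, 11.6%, 0.391% and 5.91% of cases. Of the 10 listed genes 9 had a window, 14 in all, and the MEF2 site was in KLF2 alone among these. A match is a run of letters, and a missing match concerns this window only.

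KLF10, first described as TIEG1, is an early target of TGF-beta signalling. It had 3 probes, of which 2 were kept. The brighter kept probe, on NM_005655, read 6.62, 6.44 and 5.77 on control replicates 1, 2 and 3 and 7.16, 7.02 and 6.56 on the IL-1 arrays. Each IL-1 array exceeded its same-numbered control, but the groups overlapped because IL-1 replicate 3 lay below control replicate 1. With this probe control replicate 3 missed the detection threshold, at 0.0119.

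KLF10 differed by 0.64 ± 0.29 (SE) with a 95% interval of -0.03 to 1.30 and did not pass (limma adjusted p = 0.245). The Allstars pairs differed by 0.54 and 0.57 and the Sample pair by 0.79. With the title series block KLF10 rose (limma adjusted p = 0.0164), likewise with the replicate pairs as a block (limma adjusted p = 0.0165), but not on the Allstars arrays alone (limma adjusted p = 0.0724). In the authors' deposited log2 values KLF10 read 6.64, 6.55 and 6.68 without IL-1 and 6.97, 6.85 and 6.996 with it. Tested on those values, it differed by 0.32 and did not pass (limma adjusted p = 0.286). Without control replicate 3 the KLF10 difference was 0.38, and without background correction it was 0.40. The block call was lost when array medians over all probes were equalised (limma adjusted p = 0.235).

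The other kept probe of KLF10 was well above background on control replicate 3 and IL-1 replicates 1 and 3 only. It read 4.95, 5.12 and 6.35 without IL-1 and 6.36, 4.91 and 6.73 with it. Its difference of 0.53 ± 0.56 (SE) did not pass over the 13017 kept probes without the block (limma adjusted p = 0.688) or with it (limma adjusted p = 0.291). Of all kept probes 8.09% were called without the block and 31.9% with it. KLF10's other probe, on NM_001032282, was well above background on IL-1 replicate 3 alone and was not tested. So the KLF10 call with the block rests on 1 probe.

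KLF4, a factor of epithelial differentiation and of reprogramming to pluripotency, showed no difference that passed. Its bright probe read 8.39, 8.45 and 8.70 without IL-1 and 8.35, 8.60 and 8.47 with it, so the groups overlapped. The difference was -0.04 ± 0.15 (SE), with a 95% interval of -0.39 to 0.32 (limma adjusted p = 0.926). Both KLF4 probes were designed on NM_004235, yet the dim one was well above background on 2 arrays only, control replicate 2 and IL-1 replicate 2. It read 6.15 and 6.60 there, and between 4.57 and 5.28 on the other 4 arrays.

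KLF6, a ubiquitous factor induced by injury and studied as a tumour suppressor, read 11.93, 12.09 and 11.87 on the control arrays. On the IL-1 arrays it read 12.17, 12.12 and 11.76, a range that encloses that of the control arrays. It differed by 0.05 ± 0.14 (SE), with a 95% interval of -0.28 to 0.38 (limma adjusted p = 0.889). The Allstars pairs were higher with IL-1 by 0.24 and 0.03 and the Sample pair lower, at -0.11. The Sample response minus the Allstars response was -0.24, with a 95% interval of -0.57 to 0.09 (limma interaction adjusted p = 0.910).

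KLF13, known in T cells as RFLAT-1 for its control of the chemokine CCL5, read 9.22, 9.04 and 8.62 without IL-1 and 9.03, 8.80 and 8.43 with it. Each IL-1 array was below its same-numbered control, by 0.19, 0.24 and 0.19, while the groups overlapped. The titles do not state that same-numbered arrays were paired. The difference of -0.21 ± 0.22 (SE) did not pass (limma adjusted p = 0.663), nor did it with the title series block (limma adjusted p = 0.132). With the block the 95% interval was -0.43 to 0.01. Leaving out 1 array at a time, without the block, gave KLF13 differences from -0.38 (without control replicate 3) to -0.05 (without IL-1 replicate 3).

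**Figure D3:**
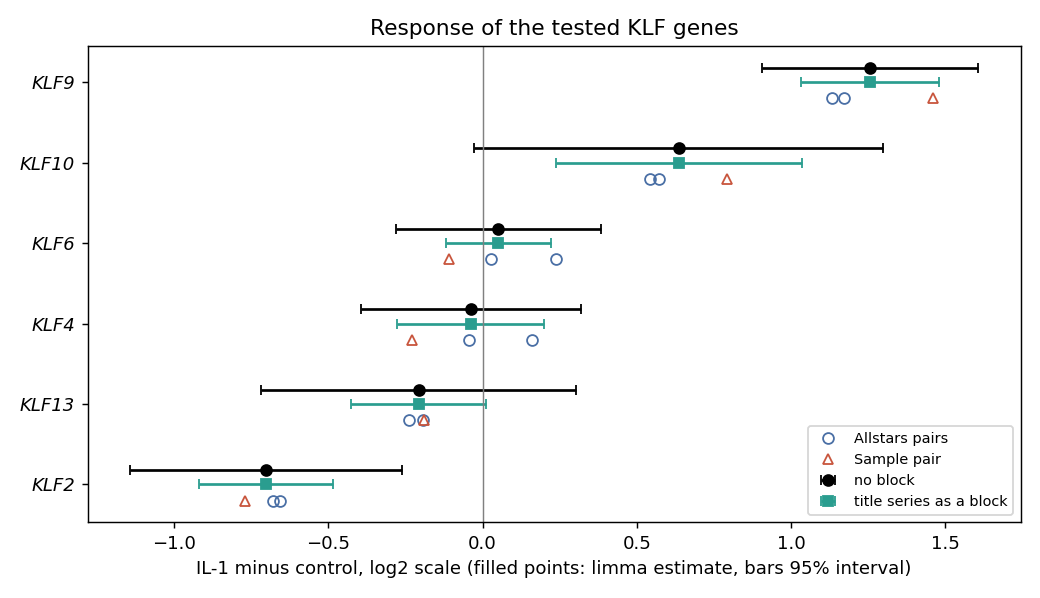
IL-1 minus control difference of the 6 tested KLF genes on the log2 scale, as the limma estimate with its 95% interval without a block (black circles) and with title series as a block (green squares), above the differences of the Allstars pairs (open circles) and the Sample pair (open triangle). The 3 pair differences of KLF9 and KLF10 all lie above 0 and those of KLF2 and KLF13 all lie below it.

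KLF5, which drives proliferation of gut epithelium and vascular smooth muscle, had detection p-values between 0.0553 and 0.518 over the 6 arrays. KLF7, a factor of neurons and sensory ganglia, had 3 probes with detection p-values between 0.0198 and 0.765. KLF16, a repressor in the SIN3A-binding group, had the highest, between 0.578 and 0.993. The levels of these 5 probes lay between 4.39 and 5.64, and no difference is given because these probes missed the detection threshold in both groups. None of the 6 tested genes entered through a single group, since each had arrays well above background in both.

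The genes most like KLF9 in pattern were taken as those with the smallest root mean square difference of centred log2 values over the 6 arrays. They were ZSWIM4, a SWIM zinc finger protein gene, at 0.0789, PRKCH, which encodes protein kinase C eta, at 0.0886, and MXD1, which encodes a MAX-binding repressor that opposes MYC, at 0.0955. ZSWIM4 rose by 1.28 ± 0.16, PRKCH by 1.21 ± 0.15 and MXD1 by 1.32 ± 0.18 (SE, limma adjusted p = 0.00176, 0.00206 and 0.00307). All 3 were also lowest on control replicate 3 among the control arrays, as KLF9 was. These points share the arrays and the treatment, so the likeness is a description. Because the genes were picked for that likeness, their rises, adjusted p-values and order on the control arrays follow from the choice.

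Over all genes tested, 6.08% rose and 2.94% fell without the block, and 13.0% rose and 22.2% fell with it. No other KLF or SP factor passed without the block. Of 17 listed 15 had a probe and 6 were tested, KLF8, KLF12, SP1, SP2, SP3 and SP4. None of these 6 passed (0 rose, 0 fell), and the median was -0.18. With title series as a block 1 fell, SP3, a GC-box factor singled out after its values were seen. It differed by -0.47 ± 0.13 (SE without the block, limma adjusted p = 0.00124 with the block and 0.0787 without). The other kept SP3 probe averaged 7.11 on the control arrays and 6.92 on the IL-1 arrays.

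Among the upstream genes, MEF2D fell, a member of the MEF2 family whose site is marked in the KLF2 window above. It read 8.70, 8.90 and 8.99 without IL-1 and 7.94, 7.90 and 7.998 with it, a difference of -0.92 ± 0.14 (SE, limma adjusted p = 0.00621). MEF2D was the only one of the 7 tested genes of the MEK5-ERK5-MEF2 route to pass, where 9.02% of all genes did. MEF2A and MEF2C differed by 0.03 and -0.09 and passed in neither fit. Whether the MEF2D fall bears on KLF2 was not tested. With the block, 3 of the 7 genes fell and 1 rose, against 22.2% and 13.0% of all genes. The riser was MAPK7, the gene of ERK5. It differed by 0.45 ± 0.18 (SE without the block, limma adjusted p = 0.00792 with the block and 0.184 without). The other falls were MAP3K3 and MAP2K5, kinases upstream of ERK5, at -0.54 (limma adjusted p with the block 0.0375) and -0.44 (0.0409). The MAP2K5 difference was -0.70 and -0.61 in the Allstars pairs and -0.02 in the Sample pair. Without the block it was -0.71 without control replicate 3 and -0.28 without control replicate 1. The other kept MAP2K5 probe, well above background on 5 arrays, averaged 6.44 on the control arrays and 6.38 on the IL-1 arrays. The naming of MEF2A, MEF2C, MAPK7, MAP3K3 and MAP2K5 followed a look at their values.

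In the glucocorticoid and thyroid hormone route to KLF9, 1 of 7 tested genes rose and 0 fell, against 6.08% and 2.94% of all genes. The riser was DUSP1, a MAP kinase phosphatase, which rose by 0.77 ± 0.12 (SE, limma adjusted p = 0.00766), reaching 0.0538 without IL-1 replicate 1. With the block 4 of the 7 rose and 1 fell, against 13.0% and 22.2% of all genes. NR3C1, the glucocorticoid receptor gene, differed by 0.75 ± 0.20 (SE without the block, limma adjusted p = 0.00408 with the block and 0.0620 without). With the block SGK1 rose by 0.56 and ERRFI1 by 0.33, TSC22D3 (GILZ) fell by 0.44, and FKBP5 differed by -0.25 (limma adjusted p = 0.139 with the block). ERRFI1 differed by 0.07 in the Sample pair, and TSC22D3 did not pass on the Allstars arrays alone (limma adjusted p = 0.107). The naming of these 5 genes followed a look at their values.

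Of 9 tested genes of the TGF-beta route to KLF10 and KLF11, 0 passed, against 9.02% of all genes. With the block 1 of the 9 rose and 2 fell, against 13.0% and 22.2% of all genes. SMAD3, which carries the signal to the nucleus, rose by 0.90 ± 0.30. TGFBR2, a TGF-beta receptor, fell by 0.70 ± 0.21 and ID3 by 0.38 ± 0.41 (all 3 SEs without the block). The limma adjusted p-values of these 3 genes with the block were 3.18e-06, 2.41e-05 and 0.0281. The ID3 difference was -0.62 and -0.46 in the Allstars pairs and -0.04 in the Sample pair. Without the block and with 1 array left out it ran from -0.82 (without control replicate 3) to -0.09 (without IL-1 replicate 3). The naming of all 3 followed a look at their values. Among 11 tested cofactors and ubiquitin ligases of KLF proteins 1 fell, against 2.94% of all genes. It was WWP1, a ligase that targets KLF2 and KLF5. WWP1 differed by -0.64 ± 0.15 (SE, limma adjusted p = 0.0338), and of the 6 fits omitting 1 array it passed in 1, that without control replicate 3 (the others reached up to 0.156). With the block 3 of the 11 fell, against 22.2% of all genes. The others were CREBBP, an acetyltransferase, and FBXW7, a ligase subunit, at -0.33 and -0.45, named after their values were seen.

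Of 14 tested genes reported as KLF targets, 1 rose and 0 fell, against 6.08% and 2.94% of all genes, with a median of 0.03. EDN1, the gene of the vasoconstrictor endothelin-1, which KLF2 represses in endothelium, rose by 1.02 ± 0.21 (SE, limma adjusted p = 0.0219). That adjusted p reached 0.101, 0.104 and 0.0926 without control replicate 1, IL-1 replicate 1 and IL-1 replicate 2. EDN1 also missed the threshold on the authors' deposited log2 values, at 0.60 (limma adjusted p = 0.0610), without a detection filter (0.0716) and with equal medians over all probes (1.00). With the block 4 of the 14 rose and 2 fell, against 13.0% and 22.2% of all genes. NOS3 and THBD, the endothelial genes that KLF2 activates, were well above background on 0 arrays.

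**Figure D4:**
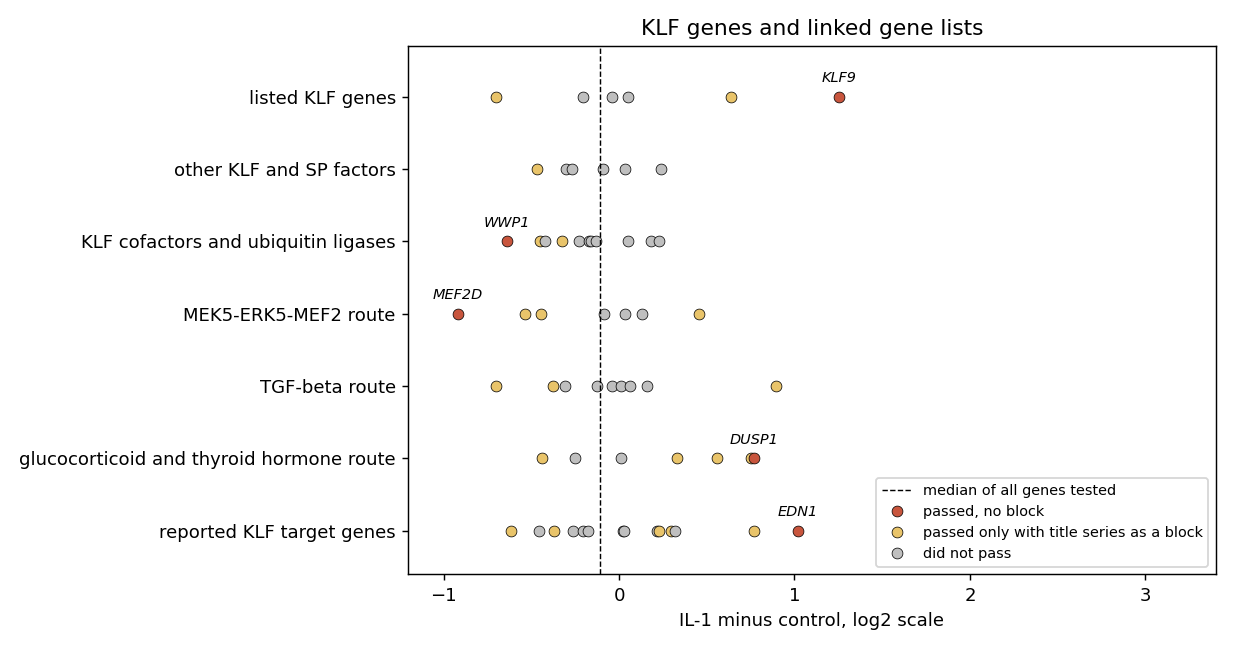
IL-1 minus control difference on the log2 scale for the tested genes of the KLF list and of 6 linked lists (1 point a gene), with the median of all genes tested as a dashed line at -0.11. Red points passed without a block, yellow points passed only with title series as a block, and grey points did not pass.

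The arrays and cells were checked once. Each array had from 11954 to 13357 probes well above background, and array medians of the deposited signals were 60.3 to 67.2 on Allstars and 91.5 and 95.3 on Sample arrays. The NF-kB targets NFKBIA and CXCL8 rose by 2.98 (limma adjusted p = 6.91e-05) and 7.76 (4.55e-07). TNFAIP3 was higher by at least 18.4-fold and IL6 by at least 122-fold. These are bounds, because neither passed the detection threshold without IL-1 and the lowest detected signal stood in for the control. Both were kept only through the IL-1 arrays, so no p-value is given for them. Of 11 chondrocyte markers 3 were well above background on 3 or more arrays, SOX9, COL11A1 and HAPLN1, and the defining ACAN and COL2A1 were on 0 arrays. SOX9, a master factor of cartilage, fell by 0.94 (limma adjusted p = 0.0186), and its part in the KLF results was not tested. The SOX9 difference was -1.09 and -1.27 in the Allstars pairs and -0.45 in the Sample pair. The summed log2 level of the 27 chondrocyte probes was 138.9 to 141.3 on the control and 135.7 to 141.0 on the IL-1 arrays. That sum includes the background signal of the 8 marker genes that were well above background on 0 arrays. Mesenchymal markers were well above background on 3 or more arrays in 6 of 7. Endothelial markers were so in 2 of 6, VWF and TEK, with CDH5, KDR, PECAM1 and TIE1 on 0 arrays. Leukocyte markers were so in 2 of 7, CD68 and CSF1R, with PTPRC, CD14, CD3E and ITGAM on 0 arrays. The brightest CD68 probe averaged 13.0 on the control arrays and the CSF1R probe 8.36.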

How the data were processed

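RNA of 3 control and 3 IL-1 samples was hybridised to Illumina bead arrays. Per the file headers, the deposited table gives each probe's intensity and its detection p-value on every array, without a stated normalization. The authors' deposited log2 values come from the series matrix. The submitters' processing notes name lumi without settings, and the medians of 5.86 to 5.87 on Allstars and 6.49 to 6.50 on Sample arrays leave the normalization across title series unknown. Here limma 3.58.1 under R 4.3.3 corrected the deposited signals with its neqc function (normexp, background inferred from detection p-values, offset 16, quantile, log2). A probe was kept if its detection p was under 0.01 on 3 or more arrays (13017). GEO's platform annotation named 28085 probes with 1 gene and 13 with several, and 20686 were unnamed here. Of the named probes 28046 matched RefSeq by gene ID, changing 0 symbols. The brightest kept probe stood for a gene (9078 genes).

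Tests used lmFit and eBayes with a trend, two-sided, with Benjamini-Hochberg adjustment, with treatment alone in the design. The fits were tested on simulated data. Title series and replicate pairs were blocks in alternative fits. Deviations from group means correlated at 0.53, 0.55 and 0.82 within same-numbered pairs over genes, and nearly as highly, at 0.49 and 0.48, between differently numbered Allstars arrays. Between an Allstars and a Sample array of opposite groups the correlations ran from -0.67 to -0.62. Deviations sum to 0 within a group, so these correlations cannot all be positive. Numbers 1 and 2 come from the titles, and the Sample arrays form the remaining pair. The interaction with title series was called for 0 genes by limma (552 at an unadjusted p under 0.05). The 95% intervals use limma's moderated variance.

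Members and gene lists were chosen with earlier results of these data known. The rule named every KLF gene and probe, up to 3 called genes of the largest change per linked list, the 3 genes nearest KLF9 in pattern (no KLF gene was called as falling) and NFKBIA, TNFAIP3, CXCL8 and IL6. Alternatives covered normalization, filters, probe choice, variance model, blocks, Allstars arrays alone and leaving out each array. Epithelial markers were measured in 2 of 6 genes.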

Additional observations from a re-analysis of the deposited data

How the results depend on the processing

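KLF9 kept its direction in all 22 alternatives and its call in 21, with log2 differences of 1.04 to 1.34, and of 1.16 to 1.34 (limma adjusted p 0.00298 to 0.0154) where an array was left out. The exception equalised array medians over all probes in place of quantile normalization (1.13, limma adjusted p = 1.00). There the medians of kept probes still ran from 7.16 to 8.83 between arrays, the median of all genes was -0.22, 171 genes and 226 probes were called, and 0 KLF genes. Equal medians over kept probes, chosen after seeing the data, called KLF9 alone. KLF2 differed by -0.56 to -0.85 in all 22 and was called in 7. It passed with the replicate block or the title series block (-0.70), Allstars arrays alone (-0.67), array weights (-0.73) and without IL-1 replicate 3 (-0.81). In settings chosen after seeing the data, it passed with title series and equal medians over all probes (-0.85) or kept probes (-0.69). On the authors' deposited log2 values KLF2 differed by -0.65 and did not pass (limma adjusted p = 0.143). Its values without an array ran from -0.56 to -0.82. Called KLF genes numbered 3 with the replicate block, the title series block, array weights, and the title series block with equal kept medians, 2 with Allstars arrays alone and with that block and equal medians over all probes, and 1 to 2 without an array. Over all genes, 3323 were called with the replicate block, 3196 with the title series block, 2582 with Allstars arrays alone, 2941 with array weights, 2970 with the block and equal kept medians, and 426 to 965 without an array, against 819. Falls alone ranged from 67 (without control replicate 1) to 353 (without IL-1 replicate 3), against 267. Over all probes these were 4330, 4156, 3827 with array weights, and 553 to 1194 without an array, against 1053. KLF4, near 0, changed sign with Allstars arrays alone (0.057), without control replicate 3 (0.055) and without IL-1 replicate 1 (0.025), and ran from -0.10 to 0.055 without an array. KLF6 changed sign without IL-1 replicate 1 (-0.026) and ran from -0.026 to 0.18 without an array. KLF10 kept its direction in 21 alternatives (0.32 to 0.81) and was not tested where detection on all 6 arrays was required. None of the sign changes was called, and the cause was not tested. Signal over background limited KLF5, KLF7, KLF16 and 4 probes of KLF4 and KLF10.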
